A study of Homo sapiens with 12 samples.

Results

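The transcripts described here are the 292 rows of the count table whose symbol ends in AS and a digit, which marks a transcript named for the gene on the opposite strand. They were chosen by name and by level: of 1126 such rows outside the HOX and ZNF families, those with at least 10 counts in 3 or more of the 12 libraries were kept, 313 of the others had no count in any library, and 15167 of the 56634 rows of the whole table pass the same count rule. HEK293, a human embryonic kidney cell line, was profiled by bulk RNA sequencing in 4 groups of 3 biological replicates. TNF_SnxB cells had 1 h of Senexin B at 1 µM and then 2 h of TNFα at 10 ng/ml, TNF cells had 1 h of 0.1% DMSO before the same TNFα, SnxB cells had Senexin B for 3 h with no TNFα, and DMSO cells had the vehicle for 3 h. Senexin B inhibits the Mediator kinases, and the design asks how it acts on these cells with and without TNFα.

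Antisense transcripts overlap a sense gene on the other strand or start beside its promoter and run away from it. Many are long noncoding RNAs, a few act on their neighbour in cis, and others are short-lived products of promoters that fire in both directions and are removed by the nuclear exosome, a complex that degrades RNA from its end. TNFα switches on NF-κB target genes within hours, and the Mediator kinases act on the transcription of such induced genes. In GENCODE 29 on GRCh38, 287 of the 292 transcripts were found, 31 of them through an older symbol, and 199 were annotated as antisense, 41 as lincRNA, 35 as processed transcript and 4 as protein-coding. A pair was placed as divergent when any annotated transcript start of the antisense gene lay within 1000 bases of any transcript start of the sense gene and faced away from it, so that other starts of the same pair may overlap. By this rule 103 were divergent and also shared exon bases with the sense gene, 80 were divergent without shared exon bases, 84 only shared exon bases, 17 lay in or across sense introns, 1 (FOXD2-AS1) lay apart, and 7 pairs could not be placed. The kit named in the labels does not mark strand, so reads from shared exon bases of an antisense transcript and its sense gene cannot be told apart, and a level or change of a transcript with shared bases may hold reads of its partner.

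Shared promoters are shown by 2 pairs whose starts lie close together and face away from each other, chosen because the members of each pair are set beside each other below. Both sequences are the RefSeq windows (GRCh38.p14) running from 250 bases before to 50 bases after the start of the antisense transcript, read on its strand, and the capitals mark the bases between the sense start and the antisense start. GTSE1-AS1 (minus strand, chr22:46296611-46296910) starts 210 bases from GTSE1, and NCBP2-AS2 (plus strand, chr3:196942424-196942723) starts 146 bases from NCBP2.
GTSE1-AS1: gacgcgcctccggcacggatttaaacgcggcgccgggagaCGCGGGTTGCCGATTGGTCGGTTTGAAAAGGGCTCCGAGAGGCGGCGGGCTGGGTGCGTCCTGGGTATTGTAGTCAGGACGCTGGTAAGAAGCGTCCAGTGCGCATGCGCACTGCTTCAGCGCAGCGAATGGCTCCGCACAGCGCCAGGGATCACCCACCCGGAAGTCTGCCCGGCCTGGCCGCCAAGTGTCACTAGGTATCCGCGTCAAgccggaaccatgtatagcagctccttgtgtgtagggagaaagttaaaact
NCBP2-AS2: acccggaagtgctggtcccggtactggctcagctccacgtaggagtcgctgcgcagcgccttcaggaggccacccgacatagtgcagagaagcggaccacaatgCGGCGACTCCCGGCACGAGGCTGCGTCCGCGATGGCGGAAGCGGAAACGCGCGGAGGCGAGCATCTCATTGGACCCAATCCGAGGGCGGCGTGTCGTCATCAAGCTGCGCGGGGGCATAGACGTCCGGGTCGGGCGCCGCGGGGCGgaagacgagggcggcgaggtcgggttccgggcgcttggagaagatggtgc
The GTSE1-AS1 window was 62% GC and held 30 CpG, and the NCBP2-AS2 window was 68.7% GC and held 40. RefSeq gave a start window for 231 of the 292 transcripts, and in 59 of the 213 pairs with both windows on opposite strands the starts were divergent and at most 250 bases apart, with a median of 130 bases between them, while in 133 the antisense start lay past the sense start, so that the transcripts converge or overlap. RefSeq gives 1 start a gene, and the placement above takes any GENCODE transcript start. Of the 183 pairs placed as divergent, 134 had both RefSeq starts, which were divergent within 1000 bases in 74 and farther apart in 1, whereas in 59 the RefSeq antisense start lay past the sense start, VIM-AS1 and VPS9D1-AS1 among them. The windows of the antisense transcripts had a median GC content of 66.7%, against 65.7% over the 10998 windows of all rows that pass the same count rule and 58.7% over all 34943 windows. Their median observed-over-expected CpG ratio was 0.822, against 0.844 for the rows that pass the count rule and 0.577 for all windows. With both strands searched, GGGCGG was found in 67.1% of the antisense windows, against 70.9% for the rows that pass the count rule and 44.9% of all windows. TATAAA was found in 5.19%, against 5.46% and 11.6%, and CCAAT in 29.4%, against 36.6% and 34.6%. The antisense windows thus lay close to those of the other rows that pass the count rule in GC, CpG, GGGCGG and TATAAA, as a description with no test, and these starts are annotated ones that were not measured in these cells.

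Library totals ran from 8705277 to 13818638 counts, apart from TNF library 2 with 50943310, and 3 counts, taken as the detection floor, were 0.0589 to 0.345 CPM. The TNF_SnxB libraries did not behave as a group: the deviation of each gene from the mean of its group correlated with gene GC content at a Spearman rho of 0.67 in TNF_SnxB library 1, and at -0.50 and -0.47 in libraries 2 and 3, against -0.33 to 0.28 in the other 9. The counts of calls in comparisons that use TNF_SnxB are therefore given also after a correction for GC content and exon length, and with TNF_SnxB library 1 alone. Of the HEK293 markers, VIM (446 to 531 CPM, the counts of a gene per 1000000 counts of its library), NEFL (39.1 to 58.3 CPM) and GATA3 (17.5 to 26.1 CPM) were present in all libraries, PAX2 (0.329 to 1.31 CPM) and NEFM (0.478 to 0.870 CPM) were close to the level of 3 counts, and LHX1 was at 2.61 to 5.41 CPM. Of 13 markers of leukocytes, endothelial cells, fibroblasts and hepatocytes, CD3E, CDH5 and DCN had no count and 8 had counts but at most 1 CPM in every library, CD14 reaching 0.919 CPM. The fibroblast collagen genes COL1A1 and COL3A1 were detected in all libraries, at 13.7 to 17.4 CPM and 0.944 to 2.22 CPM.

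The antisense transcripts were a low-level class. Their median level was 2.45 CPM over all libraries, against 27 CPM over the 14822 genes tested, with 45 of the 292 above 10 CPM and 55 below 1 CPM, and together they took 0.200 to 0.212% of the counts of a library. By group, that share was 0.206 ± 0.0051% in TNF_SnxB, 0.202 ± 0.00082% in TNF, 0.210 ± 0.0015% in SnxB and 0.205 ± 0.0041% in DMSO (mean ± SD, n = 3 each). In 195 transcripts every library had at least 10 counts, and no transcript passed the rule through the libraries of 1 group alone, although 12 passed only with the deep TNF library 2. Just inside the rule stood TIPARP-AS1, LIPE-AS1, OR2A1-AS1 and PSMD6-AS2, where the highest count reached in 3 libraries was 10, and just outside PAQR9-AS1, BRWD1-AS2, SLC2A1-AS1 and RARA-AS1, where it was 9. A further filter of the test kept 276 of the 292, and the 16 left out, such as ZRANB2-AS2 with 92 counts in all, were not tested. All 12 libraries entered the count model below, in which the median standard error of a log2 fold change was 0.19 to 0.22 for the antisense transcripts and 0.07 to 0.08 over all genes.

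The most abundant was LRRC75A-AS1, the host gene of small nucleolar RNAs also called SNHG29 (chr17:16438822-16478678, plus strand). It had 313, 334 and 352 CPM in TNF_SnxB, 326, 326 and 328 CPM in TNF, 334, 335 and 331 CPM in SnxB, and 324, 329 and 341 CPM in DMSO. TNF lay below SnxB in all libraries and the other groups overlapped. The fitted log2 fold changes were 0.00 for TNF_SnxB against TNF and -0.02 for both single treatments against DMSO (SE 0.04 each). FGD5-AS1 (chr3:14920347-14948424, minus strand) followed, with 140 to 161 CPM in TNF_SnxB, 138 to 144 CPM in TNF, 144 to 152 CPM in SnxB and 143 to 158 CPM in DMSO. OIP5-AS1, the conserved RNA known as Cyrano, which in mice directs the decay of a microRNA, came next, with group means of 88.6 to 106 CPM. TP73-AS1, VPS9D1-AS1, NCBP2-AS2, GATA2-AS1 and PSMA3-AS1 completed the highest 8, each with group means between 28.2 and 38.4 CPM. PSMA3-AS1, opposite a proteasome subunit gene, averaged 31.4 ± 2.5 CPM in TNF_SnxB, 31.0 ± 1.9 CPM in TNF, 30.7 ± 0.51 CPM in SnxB and 30.4 ± 2.7 CPM in DMSO (SD, n = 3 each), a range of means smaller than the SD of every group but SnxB.

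Per kilobase of exon, the antisense transcript was usually the minor member of its pair. Over 283 pairs with both exon lengths, 3 of them with no count for the sense gene, the median antisense level was 0.969 CPM per kb, against 5.90 CPM per kb for the sense gene, and the median antisense share of the sense level was 17.2% (quartiles 6.19% and 81.3%). In 63 pairs (22.3%) the antisense transcript was the higher one: 18 of 103 divergent pairs with shared exon bases, 14 of 79 divergent pairs without, 24 of 83 pairs that only shared exon bases, 6 of 17 in or across introns, and FOXD2-AS1. FGD5-AS1 stood at 28.8 CPM per kb, against 0.0446 CPM per kb for FGD5, a gene known from endothelial cells. LRRC75A-AS1 stood at 88.1 CPM per kb, against 1.03 CPM per kb for LRRC75A, and ATP2A1-AS1 at 24.7 CPM per kb, against 0.746 CPM per kb for ATP2A1, the calcium pump of fast muscle. At the other end, VIM-AS1 was at 1.59% of the level of VIM, the vimentin gene, and GTSE1-AS1 at 3.13% of GTSE1. NCBP2-AS2, which GENCODE lists as protein-coding, was at 35.0 CPM per kb, against 29.4 CPM per kb for NCBP2, a subunit of the nuclear cap-binding complex.

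**Figure D1:**
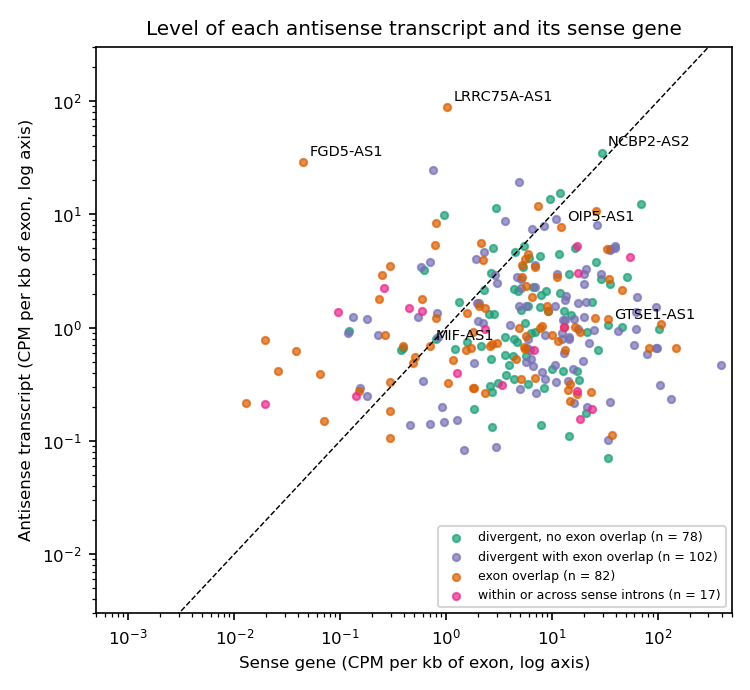
Mean level over 12 libraries of each antisense transcript (vertical) and of its sense gene (horizontal), in CPM per kb of exon on log axes, coloured by position. The dashed line marks equal levels, pairs with no sense count and FOXD2-AS1 are left out, and FGD5-AS1 and LRRC75A-AS1 lie far above the line.

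The level of the sense gene was also set beside the share of its exon bases that the antisense transcript covers, as a description. In 97 pairs with no shared exon base the median sense level was 36.3 CPM, in 131 with up to 10% of the sense exon bases shared 46.8 CPM, in 52 with 10 to 50% shared 14.1 CPM, and in 3 with more than 50% shared 0.778 CPM. The 3 were MIF, with 62.0% of its exon bases shared with MIF-AS1 and at most 1.31 CPM in any library, ADIRF with 91.9% shared with ADIRF-AS1 and no count, and PCBP1 with 52.2% shared with PCBP1-AS1 and 173 CPM. MIF encodes a cytokine, macrophage migration inhibitory factor. Whether reads in shared bases were assigned to either gene is not given in the sources used here, so the levels of MIF and MIF-AS1 cover at most the reads that the counting assigned.

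TNFα alone changed none of the antisense transcripts past the threshold. In TNF against DMSO, 0 of 276 passed an adjusted p under 0.05 in edgeR's quasi-likelihood F test (Benjamini-Hochberg over all 14822 genes, used for every adjusted p below), against 2.02% of all genes. Unadjusted p values under 0.05 were found for 13 of them (4.71%), against 10.4% of all genes, and DESeq2 called 0, against 1.58% of all genes. The median log2 fold change was -0.03 for the antisense transcripts and 0.00 for all genes. RAMP2-AS1, opposite the gene of a receptor activity modifying protein, was picked after its values were seen because 5 of 20 alternative settings called it. It was the 1 transcript called after a correction for GC content and exon length, against 4.07% of all genes, and both it and THAP9-AS1 were called with TNF_SnxB library 1 as the only library of its group, against 5.62%. RAMP2-AS1 had 4.81, 5.91 and 5.39 CPM in TNF, against 4.38, 3.51 and 3.84 CPM in DMSO. The groups did not overlap, and the log2 fold change was 0.51 (SE 0.17, adjusted p = 0.142).

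Sense genes of 5 pairs were called in TNF against DMSO, 1.88% of the 266 tested, against 2.02% of all genes. FOXP4 rose by 0.38 on the log2 scale (adjusted p = 0.00133), and NR2F1 (-0.34), TOB1 (-0.32), DLX6 (-0.42) and BCDIN3D (-0.48) fell. FOXP4, NR2F1 and DLX6 encode transcription factors, TOB1 an antiproliferative protein that binds the deadenylase complex, and BCDIN3D an RNA methyltransferase. None of their antisense partners was called, with log2 fold changes of -0.07 for FOXP4-AS1 (SE 0.23), -0.17 for NR2F1-AS1 (SE 0.13), -0.60 for TOB1-AS1 (SE 0.25), -0.23 for DLX6-AS1 (SE 0.15) and -0.30 for BCDIN3D-AS1 (SE 0.31). FOXP4 had 45.0, 47.7 and 49.9 CPM in TNF, against 35.6, 38.4 and 36.2 CPM in DMSO, while FOXP4-AS1 had 1.64, 2.20 and 2.35 CPM in TNF, against 1.89, 2.01 and 2.82 CPM in DMSO. The sense groups were apart and the antisense groups overlapped. In this comparison 17 sense genes were called after the GC correction (6.39%, against 4.07% of all genes).

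Senexin B alone also changed none of the antisense transcripts past the threshold. In SnxB against DMSO, 0 of 276 were called by edgeR, against 2.03% of all genes, and 25 had an unadjusted p under 0.05 (9.06%, against 12.1% of all genes). DESeq2 called 0 and gave no adjusted p for 115 of the 276, against 2.10% called of all genes with an adjusted p. THAP9-AS1, opposite a gene derived from a DNA transposase, was picked after its values were seen because 5 of 20 alternatives called it, among them the GC correction, against 5.01% of all genes, and TNF_SnxB library 1 as the only library of its group, against 5.66%. It had 17.2, 15.1 and 17.2 CPM in SnxB, against 21.1, 19.97 and 19.5 CPM in DMSO, with no overlap. Its log2 fold change was -0.32 (SE 0.09, adjusted p = 0.0716), while THAP9 had 8.92 ± 0.36 CPM in SnxB and 7.59 ± 1.5 CPM in DMSO (SD, n = 3 each). In TNF against DMSO, THAP9-AS1 had a log2 fold change of -0.25 (adjusted p = 0.165), a comparison that shares the DMSO libraries.

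The sense genes called in SnxB against DMSO were GTSE1 and SPAG5, which act at the mitotic spindle and were higher by 0.21 and 0.16 on the log2 scale, SLC16A1, a lactate transporter, at -0.26, and TOB1 at -0.45. These were 4 of the 266 sense genes tested, against 2.03% of all genes called. The GC correction gave 20 called sense genes (7.52%, against 5.01% of all genes), so calls rose over all genes too. GTSE1-AS1 had 1.03, 1.05 and 1.39 CPM in SnxB, against 2.23, 2.11 and 1.71 CPM in DMSO. These are 9, 11 and 13 counts in SnxB and 26, 21 and 20 in DMSO, the groups did not overlap, and the log2 fold change was -0.82 (SE 0.28, adjusted p = 0.150). GTSE1 itself had 154, 152 and 155 CPM in SnxB, against 128, 130 and 132 CPM in DMSO. TOB1 had 36.1, 33.0 and 32.3 CPM in SnxB, against 45.7, 45.2 and 44.9 CPM in DMSO, and TOB1-AS1 had 1.61, 1.43 and 2.35 CPM in SnxB, against 2.49, 2.51 and 1.71 CPM in DMSO, with overlap. SLC16A1-AS1 had a log2 fold change of -0.20 (SE 0.09, adjusted p = 0.350) and SPAG5-AS1 of -0.08 (SE 0.51).

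**Figure D2:**
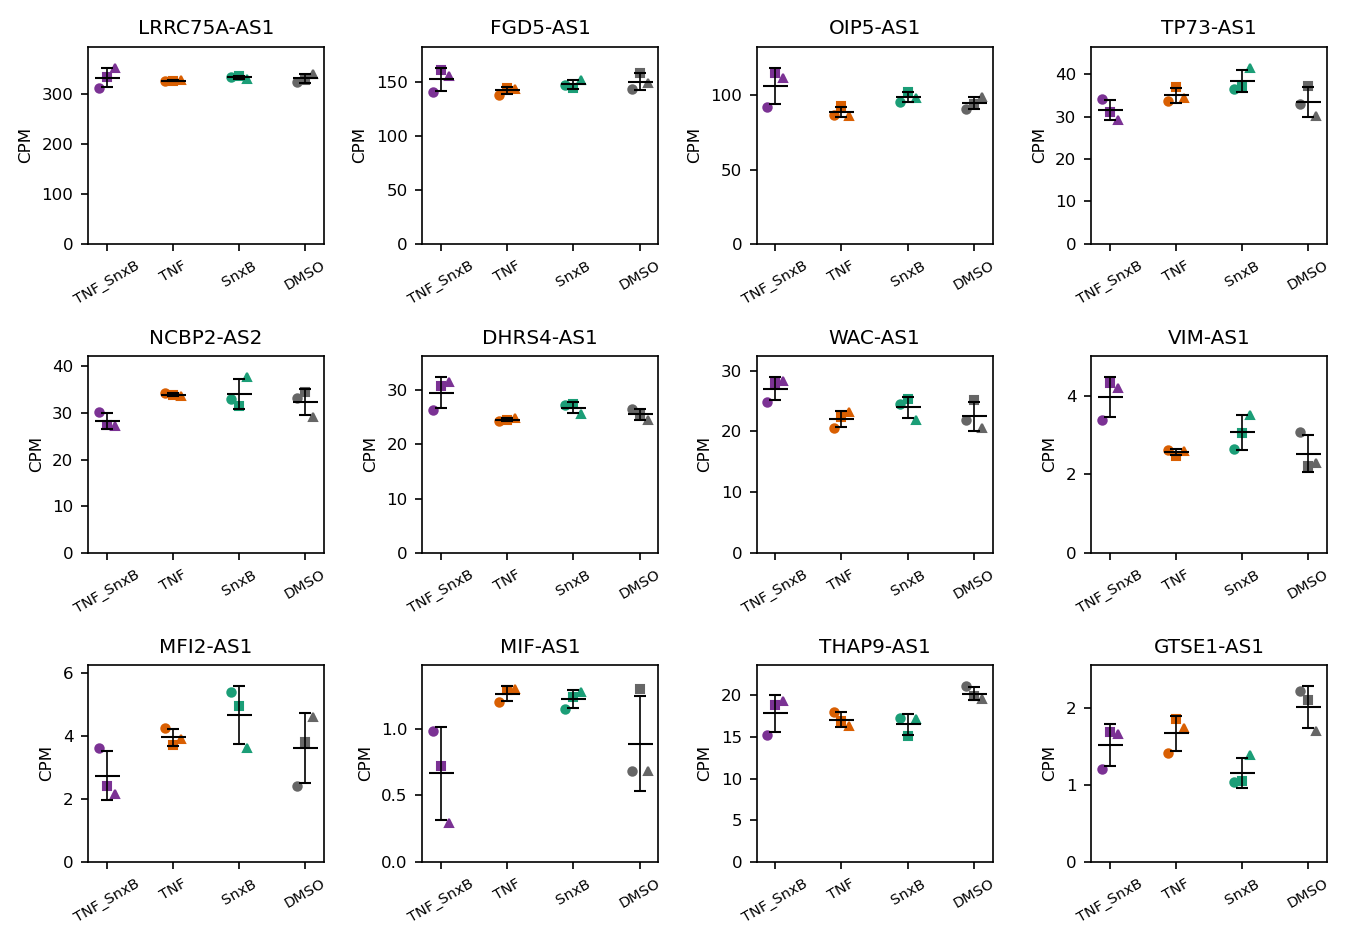
CPM of 12 antisense transcripts in every library (circles, squares and triangles are libraries 1, 2 and 3) with the mean and SD of each group; axes start at 0. In the 8 plotted transcripts called in TNF_SnxB against TNF, OIP5-AS1 to MIF-AS1, the TNF_SnxB circle lies nearer to the TNF mean than the square and the triangle do, as it does in 12 of all 16 called there.

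With TNFα present, 16 antisense transcripts differed with Senexin B, 5 higher and 11 lower in TNF_SnxB than in TNF, which is 5.80% of those tested, against 27.2% of all genes (13.3% higher and 13.9% lower). DESeq2 called 7 of them and gave no adjusted p for 210 of the 276 tested, against 27.5% called of all genes with an adjusted p. The overlap of libraries is described below for single transcripts only, since all 16 were picked by calls on these same libraries. Without TNF_SnxB library 1, 28 antisense transcripts were called, against 44.8% of all genes. After correction for GC content and exon length 10 were called, 8 higher and 2 lower, of which 5 were among the 16, against 10.9% of all genes. TNF_SnxB library 1 was the one nearest to the TNF mean in 12 of the 16, library 2 in 3 (ACVR2B-AS1, ARHGAP5-AS1 and MMP25-AS1) and library 3 in 1 (MMP24-AS1). The called transcripts that rose had a GC content of 36.4 to 49.5% and those that fell 46.0 to 64.8%. Over 272 antisense transcripts the log2 fold change had a Spearman rho of -0.35 with GC content, against -0.72 over 13725 genes, and the rho of the antisense transcripts was 0.12 after the correction. The part of GC content in these calls, beyond that correction, was not tested.

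VIM-AS1 had the largest rise among the 5 higher transcripts, at a log2 fold change of 0.65 (SE 0.17, adjusted p = 0.00504). It had 3.40, 4.34 and 4.20 CPM in TNF_SnxB, against 2.62, 2.47 and 2.61 CPM in TNF. The groups were apart, library 1 included, and the log2 fold change was 0.61 after the GC correction (adjusted p = 0.0110) and 0.42 with library 1 alone (adjusted p = 0.608), in a range of adjusted p over its alternatives of 0.000625 to 0.608. VIM moved the other way, with 474, 501 and 491 CPM in TNF_SnxB, against 531, 531 and 523 CPM in TNF (log2 fold change -0.14, adjusted p = 0.00454). VIM-AS1 (chr10:17214239-17229985, minus strand) shares 32.2% of its exon bases with VIM.

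DHRS4-AS1, reported in human cells to repress the DHRS4 gene cluster, had 26.3, 30.9 and 31.6 CPM in TNF_SnxB, against 24.3, 24.6 and 24.9 CPM in TNF. No library overlapped, the log2 fold change was 0.25 (SE 0.07, adjusted p = 0.00600), and it was 0.26 after the GC correction and 0.08 with library 1 alone. DHRS4, a retinal reductase gene, had 14.8 ± 1.9 CPM in TNF_SnxB and 14.9 ± 0.44 CPM in TNF (SD, n = 3 each). WAC-AS1 had 24.9, 27.9 and 28.4 CPM in TNF_SnxB, against 20.5, 22.3 and 23.2 CPM in TNF. It also had no overlap, with a log2 fold change of 0.27 (SE 0.08, adjusted p = 0.00872), 0.21 after the GC correction and 0.15 with library 1 alone. WAC, an adaptor of histone ubiquitination, rose with it by 0.14 (adjusted p = 0.00370).

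OIP5-AS1 and OTUD6B-AS1 were not called after the GC correction. OIP5-AS1 had 92.4, 115 and 112 CPM in TNF_SnxB, against 86.9, 92.6 and 86.3 CPM in TNF, so that library 1 lay within the TNF range. Its log2 fold change was 0.23 (SE 0.06, adjusted p = 0.00372), 0.09 after the GC correction (adjusted p = 0.0972) and 0.02 with library 1 alone. OTUD6B-AS1, beside a deubiquitinase gene, was at 36.4% GC the poorest in GC of the 16, and its log2 fold change of 0.21 (adjusted p = 0.0329) became -0.02 after the correction.

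Of the 11 lower transcripts, MMP24-AS1 and ARHGAP5-AS1 were also called after the GC correction. MMP24-AS1, opposite a membrane-type matrix metalloproteinase gene, had 18.9, 17.5 and 19.3 CPM in TNF_SnxB, against 23.5, 20.9 and 26.6 CPM in TNF. The groups were apart, the log2 fold change was -0.33 (SE 0.09, adjusted p = 0.0116), and it was -0.27 both after the correction and with library 1 alone. ARHGAP5-AS1 had 4.28, 5.14 and 3.98 CPM in TNF_SnxB, against 6.34, 5.56 and 5.91 CPM in TNF, again with no overlap. Its log2 fold change was -0.40 (SE 0.14, adjusted p = 0.0336), and -0.44 both after the correction and with library 1 alone, while ARHGAP5 had a log2 fold change of 0.29 (adjusted p = 0.00168), and of -0.0061 with library 1 alone.

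The other 9 lower transcripts were not called after the correction. NCBP2-AS2 had 30.1, 27.4 and 27.1 CPM in TNF_SnxB, against 34.2, 34.0 and 33.7 CPM in TNF, a log2 fold change of -0.30 (SE 0.07, adjusted p = 0.00266) that was -0.09 after the correction. NCBP2 across the shared promoter was higher by 0.12 (adjusted p = 0.0402). MIF-AS1 had the largest fall, -1.06 on the log2 scale (SE 0.33, adjusted p = 0.0181), and rested on 9, 9 and 4 counts in TNF_SnxB, against 11, 66 and 15 in TNF. That is 0.987, 0.723 and 0.289 CPM in TNF_SnxB, against 1.202, 1.30 and 1.30 CPM in TNF, with no overlap. VPS9D1-AS1, a MYC target in colorectal cancer cells, had a log2 fold change of -0.22 (adjusted p = 0.0194) and of 0.04 after the correction. PTOV1-AS2 (-0.53), MFI2-AS1 (-0.57), ACVR2B-AS1 (-0.51), MMP25-AS1 (-0.33), TMEM147-AS1 (-0.23) and TP73-AS1 (-0.21) made up the rest.

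**Figure D3:**
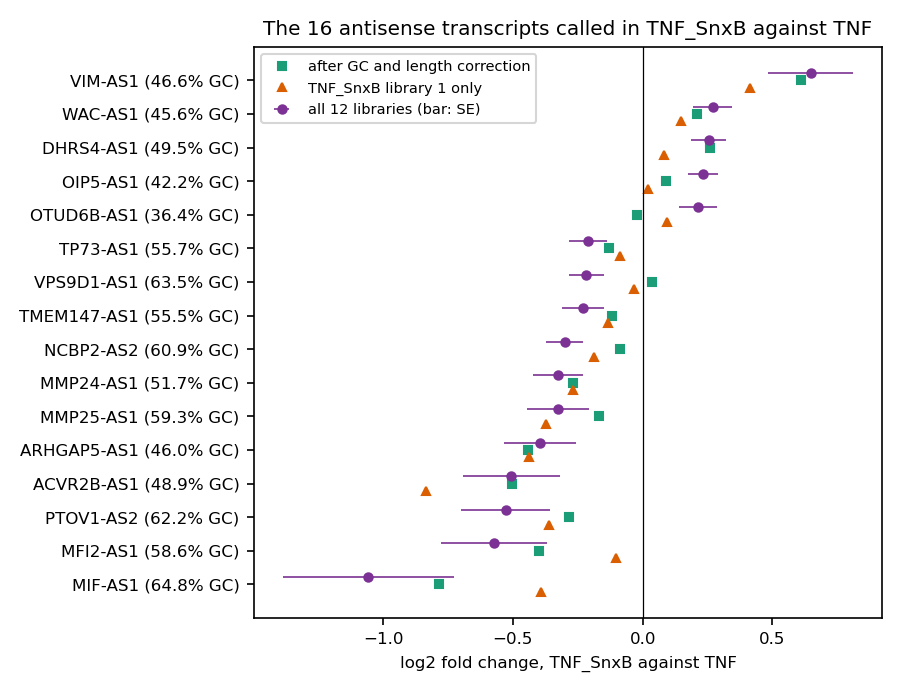
Log2 fold change, TNF_SnxB against TNF, of the 16 called antisense transcripts with all libraries (purple, with SE), after GC and length correction (green) and with TNF_SnxB library 1 as the only library of its group (orange), with the exon GC content beside each name. VIM-AS1 is at 0.65, 0.61 and 0.42, and OTUD6B-AS1 and VPS9D1-AS1 change sign after the correction.

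TNF_SnxB against SnxB, the TNFα response under the inhibitor, had 6 called antisense transcripts, all lower, which is 2.17% of those tested, against 14.2% of all genes called and 6.83% lower. DESeq2 called 2 and gave no adjusted p for 228 of the 276 tested, against 15.5% called of all genes with an adjusted p. MFI2-AS1, opposite the melanotransferrin gene, was lower by the most. It had 3.62, 2.41 and 2.17 CPM in TNF_SnxB, against 5.40, 4.97 and 3.63 CPM in SnxB, with library 1 of TNF_SnxB just below the lowest SnxB library. The log2 fold change was -0.82 (SE 0.22, adjusted p = 0.0176), and after the GC correction it was the only one of the 6 still called, at -0.69 (adjusted p = 0.0427), against 4.18% of all genes. RAB11B-AS1, opposite a recycling endosome GTPase gene, had 2.85, 2.81 and 2.82 CPM in TNF_SnxB, against 4.14, 4.30 and 3.95 CPM in SnxB. The groups were apart, with a log2 fold change of -0.54 (SE 0.18, adjusted p = 0.0412) and of -0.45 after the correction (adjusted p = 0.221). MMP25-AS1 (-0.42), BAIAP2-AS1 (-0.31), TP73-AS1 (-0.29) and NCBP2-AS2 (-0.28) were the others, none of the 6 was called with TNF_SnxB library 1 alone, against 1.43% of all genes, and the TNF_SnxB libraries are those of the previous comparison.

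TP73-AS1, opposite the gene of a p53-family transcription factor, was the 1 transcript called in the interaction of both treatments, against 2.50% of all genes. It had 34.1, 31.2 and 29.3 CPM in TNF_SnxB, 33.7, 36.9 and 34.4 CPM in TNF, 36.5, 37.2 and 41.4 CPM in SnxB, and 33.0, 37.2 and 30.2 CPM in DMSO. TNF_SnxB lay below SnxB in all libraries and overlapped both TNF and DMSO. The interaction was -0.38 on the log2 scale (SE 0.11, adjusted p = 0.0490), and -0.28 after the GC correction (adjusted p = 0.254), where 0.128% of all genes were called. DESeq2 gave no adjusted p for 273 of the 276 antisense transcripts and called 0. That 0 cannot be set against the 7.24% called of all genes with an adjusted p.

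**Figure D4:**
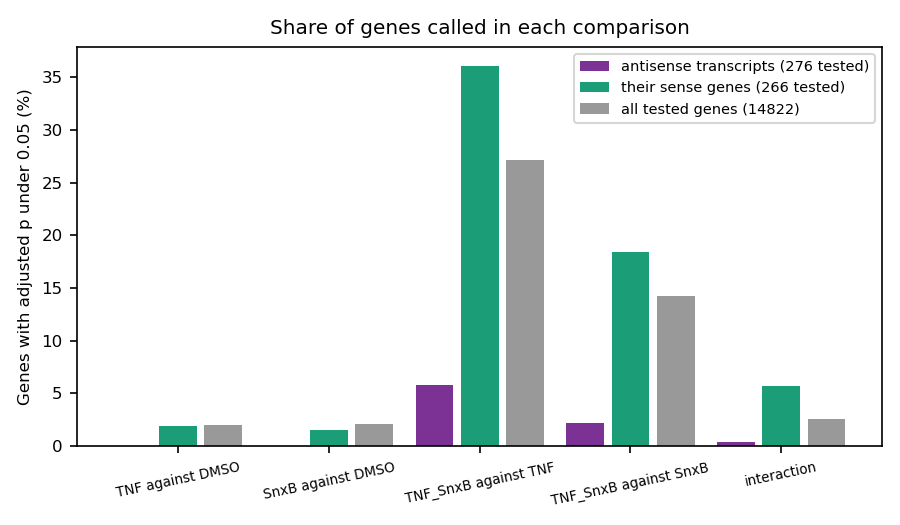
Percentage of genes with an adjusted p under 0.05 in each comparison, for antisense transcripts (purple), their sense genes (green) and all tested genes (grey); bars start at 0. In TNF_SnxB against TNF the bars stand at 5.80, 36.1 and 27.2%, and the antisense transcripts have no bar in either single treatment.

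The sense genes were called more widely than their antisense transcripts. In TNF_SnxB against TNF, 96 of 266 tested sense genes passed (36.1%, 53 higher and 43 lower), in 98 pairs, and in 8 of those pairs the antisense transcript was called too, 5 times in the same direction. After the GC correction 37 sense genes passed (13.9%, against 10.9% of all genes), 24 of them among the 96. In 2 pairs both members were then called, VIM-AS1 with VIM and WNT5A-AS1 with WNT5A, 1 in the same direction. Of the 5 pairs that had moved together, PTOV1, TP73 and VPS9D1-AS1 changed sign with that correction, to 0.0057, 0.03 and 0.04. With TNF_SnxB library 1 alone 11 sense genes passed (4.12%, against 2.64% of all genes), and no pair had both members called. In TNF_SnxB against SnxB 49 sense genes passed (18.4%, against 14.2% of all genes), in 50 pairs, with 1 antisense partner called, RAB11B-AS1 with RAB11B. Of those tested, 15 passed after the correction (5.64%, against 4.18% of all genes), with no antisense partner called. In the interaction 15 sense genes passed (5.64%, against 2.50% of all genes), and 0 after the correction. DESeq2 called 15 of the 143 with an adjusted p (10.5%, against 7.24% of all genes). An unadjusted p under 0.05 was found for 73 (27.4%, against 23.5% of all genes). The classes differ in level and hence in precision, and the difference in share was not tested. Across 257 pairs with both members tested, the Spearman rho between the log2 fold changes was 0.18 in TNF against DMSO, -0.10 in SnxB against DMSO, and 0.24 in TNF_SnxB against TNF. After the GC correction the last of these was -0.01, and with TNF_SnxB library 1 alone it was 0.03 over 268 pairs. The points share libraries and GC content, and these values are a description.

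The ratio of an antisense transcript to its sense gene in the same library is free of library scaling. It is not free of a GC trend of the library where the 2 members differ in GC content, and the ratios were not corrected for GC content. They were compared between Senexin B and no Senexin B, averaged over both TNFα states, for 278 pairs. An exact two-sided permutation test with labels exchanged within each TNFα state (400 assignments, smallest p 0.005) gave a p under 0.05 for 33 pairs (11.9%), 15 with a higher and 18 with a lower ratio. For TNFα, tested in the same way within each Senexin B state, 10 pairs did (3.60%), 2 higher and 8 lower. These p values are unadjusted. A pair alone at the smallest p the design allows could not pass an adjustment over 278 pairs. That p was reached by 6 pairs for Senexin B and 3 for TNFα. Over the pairs of the called transcripts, 5 of 17 had a p under 0.05 for Senexin B, among them VIM-AS1 at 0.56 (p = 0.015, exact), and those pairs had been chosen by calls on the same libraries.

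The smallest p for Senexin B was reached by 6 pairs, singled out here by that value. That p requires libraries apart in the same direction in both TNFα states, so their separation was fixed by this choice. The log2 ratio of GTSE1-AS1 to GTSE1 was -6.91, -6.52 and -6.56 in TNF_SnxB, against -6.47, -6.12 and -6.14 in TNF, and -7.14, -7.11 and -6.75 in SnxB, against -5.82, -5.91 and -6.23 in DMSO. The libraries were apart in both states, and the difference averaged -0.71, made of -0.41 with TNFα and -1.01 without. With TNF_SnxB library 1 alone it was -0.84. GTSE1-AS1 had 1.21, 1.69 and 1.66 CPM in TNF_SnxB, against 1.42, 1.86 and 1.74 CPM in TNF, with overlap. GTSE1 had 151, 158 and 160 CPM in TNF_SnxB, against 131, 131 and 126 CPM in TNF, and was apart. Both genes start within the window printed above and share no exon base. Among the others were LOXL1-AS1 at 0.50, RASAL2-AS1 at -0.50, FOXN3-AS1 at -0.41 and TMEM161B-AS1 at -0.38, none of these 4 called in SnxB against DMSO by the count model. With TNF_SnxB library 1 alone the p was 0.075 for RASAL2-AS1 and 0.05 for FOXN3-AS1, by exact permutation. LOXL1-AS1, opposite a gene for an elastin cross-linking enzyme, averaged 0.25 with TNF_SnxB library 1 alone.

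For TNFα, GATA2-AS1, PTPRG-AS1 and BOLA3-AS1 reached the smallest p, which likewise requires libraries apart in both Senexin B states. The log2 ratio of GATA2-AS1 to GATA2, a transcription factor of blood and endothelial progenitors, was -0.30, -0.35 and -0.21 in TNF_SnxB, against -0.60, -0.40 and -0.41 in SnxB, and -0.43, -0.48 and -0.46 in TNF, against -0.62, -0.64 and -0.50 in DMSO. The libraries were apart in both states, and the difference averaged 0.16, with p = 0.0625 by the same exact test when TNF_SnxB library 1 was the only library of its group. GATA2-AS1 itself averaged 30.3 ± 1.4 CPM in TNF and 30.8 ± 2.1 CPM in DMSO, and GATA2 41.6 ± 1.4 CPM in TNF and 46.4 ± 2.2 CPM in DMSO (SD, n = 3 each). PTPRG-AS1 was at -0.42 (p = 0.1375, exact, with library 1 alone) and BOLA3-AS1 at -0.23.

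**Figure D5:**
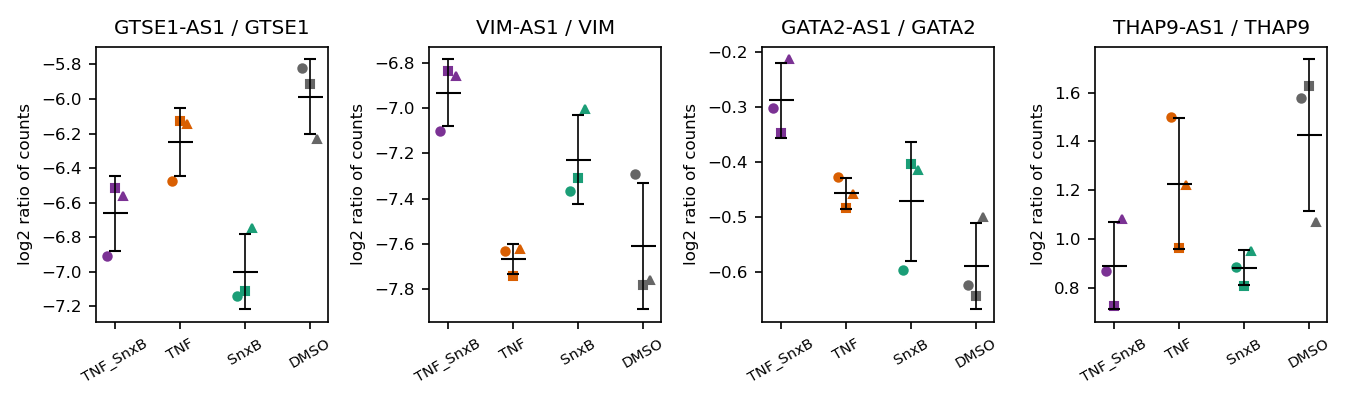
Log2 ratio of antisense to sense counts in every library (circles, squares and triangles are libraries 1, 2 and 3) with mean and SD per group, for 4 pairs; the vertical axes do not start at 0. GTSE1-AS1 lies lower in TNF_SnxB than in TNF and lower in SnxB than in DMSO, and VIM-AS1 lies higher in TNF_SnxB than in TNF.

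Genes that act in the nuclear decay of such transcripts were read from a list of 19, all tested. None was called in TNF against DMSO or in SnxB against DMSO, against 2.02% and 2.03% of all genes. In each of these 2 of the list had an unadjusted p under 0.05 (10.5%, against 10.4% and 12.1% of all genes). DESeq2 called 0 in both, against 1.58% and 2.10% of all genes. In TNF_SnxB against TNF 8 passed (42.1%, against 27.2% of all genes). RBM7 (0.37), C1D (0.21), ZFC3H1 (0.20), MPHOSPH6 (0.19) and EXOSC8 (0.18) were higher, and EXOSC4 (-0.32), EXOSC5 (-0.26) and EXOSC6 (-0.18) were lower. RBM7 and ZFC3H1 belong to adaptors that hand nuclear RNA to the exosome, and C1D and MPHOSPH6 are exosome cofactors. After the GC correction 2 of the 19 were called, against 10.9% of all genes. In TNF_SnxB against SnxB 4 passed (21.1%, against 14.2% of all genes), RBM7 (0.26), DIS3 (0.18) and SKIV2L2 (0.14) higher and EXOSC6 (-0.16) lower. After the correction 1 was called, against 4.18% of all genes. In the interaction MPHOSPH6 (0.36) and EXOSC6 (-0.30) passed (10.5%, against 2.50% of all genes), with 1 called after the correction, against 0.128%. Of the 16 antisense transcripts of the HOX and ZNF families that the name rule leaves out, HOXD-AS2 was called in TNF_SnxB against SnxB (log2 fold change -0.46, SE 0.16, adjusted p = 0.0461). It was not called after the GC correction or with library 1 alone, and DESeq2 gave it no adjusted p. In that comparison 5 had an unadjusted p under 0.05 (31.2%, against 29.5% of all genes). In the other 4 comparisons edgeR and DESeq2 called 0. DESeq2 gave no adjusted p for 5 of the 16 in SnxB against DMSO, 12 in TNF_SnxB against TNF and 16 in the interaction. An unadjusted p under 0.05 was found for 1 in TNF against DMSO (6.25%, against 10.4% of all genes) and 3 in SnxB against DMSO (18.75%, against 12.1%). It was found for 0 in TNF_SnxB against TNF (against 39.1%) and 2 in the interaction (12.5%, against 23.5%).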

How the data were processed

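Total RNA of 12 HEK293 libraries was made into libraries with a TruSeq RNA kit, per the labels' protocols. The deposited table holds whole-number counts of each symbol, unnormalized and made by the authors with STAR 2.4, SAMtools 1.2 and featureCounts of Subread 1.4.6 on hg38, per the submitters' processing notes; neither strand setting nor annotation is given in the sources used here. Replicates are separate samples that the labels call biological. Genes were filtered with filterByExpr, scaled by TMM and tested with the quasi-likelihood F test of edgeR 4.0.16 on group means (R 4.3.3), with p adjusted over all 14822 genes. DESeq2 1.42.0, other size factors, no filter, only the groups compared, GC and length offsets and left-out libraries were alternatives. The count model was tested on simulated counts that had the same spread for all genes and no GC trend, unlike the TNF_SnxB libraries. Positions come from GENCODE 29 and start windows from RefSeq. Antisense-to-sense ratios used an offset of 0.5 counts. Named were all called transcripts, the 8 most abundant, those at the count rule's edge, their sense genes, and the called exosome genes. The members and lists were chosen with earlier results of these data known. The values of 1 pair are not reported here.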

Additional observations from a re-analysis of the deposited data

Results flagged for a closer look

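The difference between the TNFα effects with and without Senexin B was itself past the threshold (interaction term, edgeR) for TP73-AS1, at -0.385 on the log2 scale, and for 15 sense genes, 7 higher and 8 lower. Of the sense genes described above, these were PTOV1 at -0.255, RAB11B at -0.383 and SLC16A1 at 0.202, and of the exosome genes EXOSC6 at -0.297 and MPHOSPH6 at 0.357. After the correction for GC content and exon length 0 antisense transcripts, 0 sense genes and 1 of the exosome genes were called in that comparison, and with TNF_SnxB library 1 as the only library of its group 0 of each.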

How the results depend on the processing

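Calls of antisense transcripts moved with the GC correction (for each gene's GC content and exon length) and with the TNF_SnxB libraries used, and median-of-ratios size factors gave the same 16, 6 and 1 calls in TNF_SnxB against TNF, TNF_SnxB against SnxB and the interaction. In TNF_SnxB against TNF there were 16 calls, 7 by DESeq2 (no adjusted p for 210 of 276), 10 after the GC correction, 5 at an adjusted p under 0.01, 0 without TNF_SnxB libraries 2 and 3, and 6 to 28 with any 1 library left out, the 28 without TNF_SnxB library 1. In TNF_SnxB against SnxB there were 6, 2 by DESeq2, 1 after the GC correction, 0 at an adjusted p under 0.01, 1 with only the groups compared, 0 without TNF_SnxB libraries 2 and 3, and 0 to 23 with any 1 library left out. The 23 were called without TNF_SnxB library 1, where 5391 of all 15113 genes tested were called. Over all genes that comparison had 14.2% called, 3.54% with the compared groups fitted alone, and 3.43 to 35.7% with 1 library left out. The interaction had 1, 0 by DESeq2, after the GC correction, at an adjusted p under 0.01 and without TNF_SnxB libraries 2 and 3, 3 with no low-count filter, and 0 to 17 with any 1 library left out. The 17 were also called without TNF_SnxB library 1, where 4534 of all 15113 genes tested were called. TNF against DMSO had 0, 1 after the GC correction, 2 with only the groups compared, 2 without TNF_SnxB libraries 2 and 3, and 0 to 2 with any 1 library left out; SnxB against DMSO had 0, 1 under each of those settings, and 0 to 1. The exosome list had 8 calls in TNF_SnxB against TNF, 2 after the GC correction, 5 with no low-count filter, 4 with only the groups compared, 0 without TNF_SnxB libraries 2 and 3, and 3 to 14 with any 1 library left out. In TNF against DMSO that list had 0, 1 after the GC correction, 2 with only the groups compared, 2 without TNF_SnxB libraries 2 and 3, and 0 to 2; in SnxB against DMSO 0, 1 after the GC correction, 1 without TNF_SnxB libraries 2 and 3, and 0 to 1. With any 1 library left out, ratio p values under 0.05 were found for 5 to 8 of the 17 pairs and 27 to 36 of all pairs for Senexin B, and for 0 to 1 and 7 to 15 for TNFα. The exosome list had 4 calls in TNF_SnxB against SnxB, 1 after the GC correction, 0 with only the groups compared, 0 without TNF_SnxB libraries 2 and 3, and 0 to 12 with any 1 library left out, and in the interaction 2, 1, 0 without those libraries, and 0 to 11. The HOX and ZNF antisense list had 1 call in TNF_SnxB against SnxB, 0 by DESeq2, after the GC correction, with no low-count filter, with only the groups compared, with the replicate block and without TNF_SnxB libraries 2 and 3, and 0 to 3 with any 1 library left out; it had 0 to 1 in the interaction and 0 throughout in the other 3 comparisons. Sense genes called after the GC correction and without TNF_SnxB libraries 2 and 3 were 37 and 11 in TNF_SnxB against TNF, against 96, 15 and 3 in TNF_SnxB against SnxB, against 49, 0 and 0 in the interaction, against 15, 17 and 29 in TNF against DMSO, against 5 (3 by DESeq2), and 20 and 22 in SnxB against DMSO, against 4. The alternatives for sense genes, for both lists and for the ratios of all pairs were chosen after seeing the data. Calls over all genes moved with the setting too, so these counts alone show no shift particular to a list. In TNF_SnxB against TNF 27.2% of all genes were called, and 10.8% when low-count genes were kept. The share was 16.8% with the compared groups fitted alone, and 12.5 to 44.8% with 1 library left out. Leaving out 1 library gave 1.18 to 5.78% in TNF against DMSO and 1.14 to 5.82% in SnxB against DMSO.

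Deviations of same-numbered libraries from their group means correlated at -0.19 to 0.30. Libraries of different numbers were not compared, so whether replicate numbers pair the libraries was not settled. With the replicate block, calls were 13 in TNF_SnxB against TNF (28.1% of all genes called), 7 in TNF_SnxB against SnxB (14.9%), 2 in the interaction (4.97%), and 0 in TNF against DMSO (1.96%) and SnxB against DMSO (2.06%). With the block and the GC correction they were 11 (10.9% of all genes), 1 (4.27%), 0 (0.162%), 1 (4.03%) and 1 (5.20%), and the exosome list had 3, 1, 1, 1 and 1 calls in the same order and the HOX and ZNF list 0.

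Signs changed for these log2 fold changes. After the GC correction, and with the replicate block added, TNF_SnxB against TNF gave OTUD6B-AS1 -0.022 and -0.016, VPS9D1-AS1 0.036 and 0.041, DHRS4 0.073 and 0.069, OTUD6B -0.13 and -0.13, PTOV1 0.0057 and 0.0029, and TP73 0.028 and 0.022 (0.083 and 0.076 in the interaction), and MMP25 in TNF_SnxB against SnxB gave 0.086 and 0.085. Without TNF_SnxB libraries 2 and 3, TNF_SnxB against TNF gave ARHGAP5 -0.0061, DHRS4 0.17 and OTUD6B -0.0071. With any 1 library left out, TNF_SnxB against TNF gave -0.12 to 0.0052 for ACVR2B, -0.16 to 0.012 for DHRS4 and -0.022 to 0.12 for MMP24, TNF against DMSO gave -0.19 to 0.14 for FOXP4-AS1, and SnxB against DMSO gave -0.82 to 0.37 for SPAG5-AS1. The causes were not tested. With 10 to 20 counts in many libraries, antisense transcripts near the count rule give no precise fold change, and the rule would give 398 members at 5 counts and 204 at 20.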
